A study of Arabidopsis thaliana with 6 samples.

Results

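The genes described are 4 Arabidopsis thaliana genes that stood among the strongest increases of a double mutant against wild type: AT4G02330 (ATPMEPCRB, a pectin methylesterase), AT5G39580 (a peroxidase), AT4G22470 (of the lipid transfer protein family) and AT3G28220 (with a TRAF-like domain). Each was read by 1 probe set that names no other gene, and together they are 4 of 13286 genes measured that way. They were chosen by their log2 difference between these same arrays, so their own values are a description and carry no test. Rosette leaves of well-watered plants aged 21 days, kept under 12 h of light, were profiled on 6 Affymetrix arrays. Of these, 3 came from a double mutant in AT3G03940 and AT5G18190, which encode the protein kinases MLK2 and MLK1, and 3 from wild-type Columbia-0. The labels call the mutant a knockdown in one place and homozygous in another, and give neither its alleles nor the number of lines. They also do not say whether replicates were separate plants or pools, so p-values measure the spread between RNA samples, which may be partly technical. AT5G18190 is written there with a digit missing. The series title concerns osmotic stress and phosphorylation of histone H3, while these plants were not stressed.

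The products of these genes belong to families known from the plant cell surface or from stress responses. Pectin is made with methyl groups on its acidic sugars. Pectin methylesterases of the wall remove them, which lets calcium bridge neighbouring chains or opens the chain to polygalacturonases and pectate lyases, and small inhibitor proteins bind and block the esterases. Class III peroxidases are secreted haem enzymes that can cross-link wall phenolics and proteins, or release reactive oxygen, and many respond to wounding and infection. Lipid transfer proteins and their proline-rich relatives share a fold held by 8 conserved cysteines, bind lipids outside the cell, and include genes of systemic resistance such as DIR1 and AZI1. TRAF-like (MATH) domains bind other proteins, and the plant family that carries them is large.

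The arrays separated by genotype, and 38.5% of the 22746 probe sets tested passed at a limma adjusted p of 0.05. Pearson correlations across probe sets were 0.9967 to 0.9976 within the double mutant and 0.9932 to 0.9956 within the wild type, against 0.9672 to 0.9695 between genotypes. MLK1 (AT5G18190) read 3.42, 3.57 and 3.36 on the log2 scale in the double mutant arrays, against 7.92, 7.74 and 7.63 in the wild-type arrays. MLK2 was not analysed here. The arrays also differed in quantities that RNA preparation can change: a 25S ribosomal RNA control probe set read 12.20 ± 0.12 in the double mutant and 5.93 ± 0.76 in the wild type (SD, n = 3 each), and for 3 of 6 control pairs that read the 5′ and the 3′ end of a transcript, the 5′ signal relative to 3′ was higher in all double mutant arrays, by 0.35 to 0.67. For 1 pair, of ubiquitin, it was lower in all of them, by a difference of -0.19, and for the other 2 the genotypes overlapped. The part of these quantities in the results was not tested. Leaf identity was checked on 7 measured genes of 33 leaf markers. Their mean log2 level was 11.81 to 11.85 in the double mutant arrays and 11.38 to 11.44 in the wild-type arrays. At the same threshold 5 of these 7 genes rose, where 17.8% of all genes did.

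ATPMEPCRB (AT4G02330), the pectin methylesterase, read 8.64, 8.68 and 8.21 in the double mutant arrays, against 4.38, 4.30 and 4.21 in the wild-type arrays, on the deposited log2 scale. The groups lay far apart, and the lowest double mutant array exceeded the highest wild-type array by 3.83, or 14.2-fold. The mean was 8.51 ± 0.26 in the double mutant and 4.30 ± 0.08 in the wild type (SD, n = 3 each), a log2 difference of 4.21 (SE 0.13) or 18.6-fold. Double mutant replicate 3 was the lowest of its group and set most of the group's range of 0.47. In leaf tissue as a whole, more cells that carry a transcript and more transcript per cell cannot be told apart, and this holds for every value given here.

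The peroxidase gene AT5G39580 read 7.30, 6.91 and 7.09 in the double mutant arrays, against 3.47, 3.73 and 3.61 in the wild-type arrays. All 3 wild-type readings lay below the lower quartile of their own array, which is taken here as near the background, so the change is a lower bound. The log2 means were 7.10 ± 0.20 in the double mutant and 3.60 ± 0.13 in the wild type (SD, n = 3 each), at least 3.50 apart (SE 0.12), or at least 11.3-fold. Of the 4 genes it was the only one near the background in the wild type.

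AT4G22470, of the lipid transfer protein family, read 9.68, 9.74 and 9.86 in the double mutant arrays, against 5.80, 5.46 and 6.07 in the wild-type arrays. Here the wild-type arrays were the more scattered, with a range of 0.61 against 0.18 in the double mutant. The log2 means were 9.76 ± 0.09 in the double mutant and 5.77 ± 0.30 in the wild type (SD, n = 3 each), which differ by 3.99 (SE 0.14) or 15.9-fold.

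AT3G28220, the TRAF-like gene, read 9.27, 9.13 and 9.27 in the double mutant arrays, against 4.68, 4.91 and 4.88 in the wild-type arrays. Both groups were tight, and the gap between the nearest arrays of the genotypes was 4.22, or 18.7-fold. The log2 means were 9.22 ± 0.08 in the double mutant and 4.82 ± 0.13 in the wild type (SD, n = 3 each). The log2 difference of 4.40 (SE 0.10), or 21.1-fold, ranked 1 among the 13436 probe sets that name 1 gene of the RefSeq table. ATPMEPCRB and AT4G22470 ranked 3 and 4 by the same measure. AT5G39580 ranked 8 by its measured difference, which is a lower bound, so its true place may be higher.

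**Figure D1:**
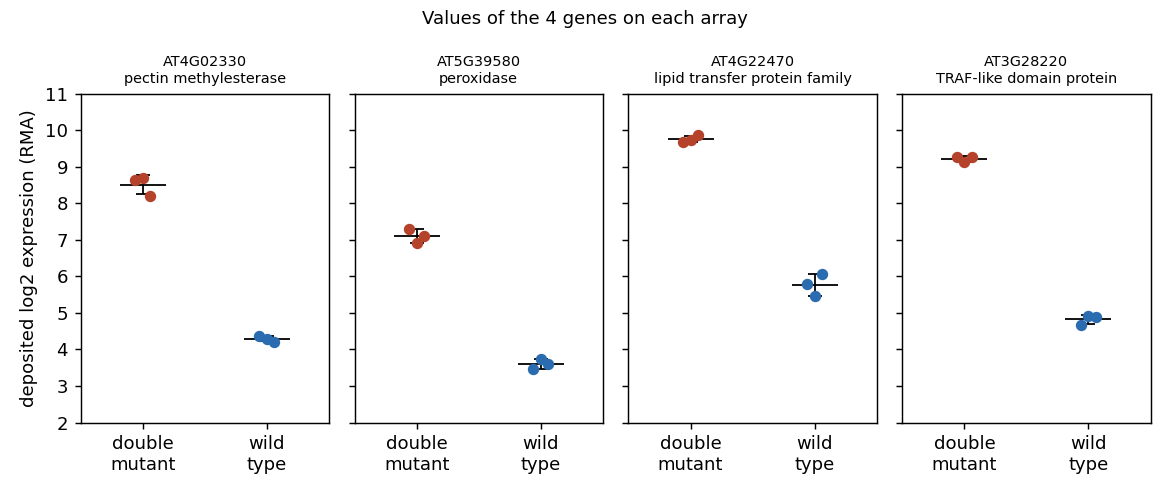
Deposited log2 expression of the 4 genes, with 1 panel per gene. Points are arrays (double mutant left, wild type right), the horizontal bar is the mean and the error bar the SD over 3 arrays. Every double mutant array lies above every wild-type array in each panel, by 3.18 for AT5G39580 up to 4.22 for AT3G28220.

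The order of the replicates within a genotype was not the same for all 4 genes, though AT5G39580 and AT3G28220 were alike in it. Taken against the wild-type mean, the log2 difference of ATPMEPCRB was 4.34, 4.39 and 3.91 in double mutant replicates 1, 2 and 3. That of AT5G39580 was 3.70, 3.31 and 3.48. That of AT4G22470 was 3.91, 3.97 and 4.08, and that of AT3G28220 was 4.45, 4.30 and 4.45. Replicate 3 was thus the lowest for ATPMEPCRB and the highest for AT4G22470, and replicate 2 was the lowest for AT5G39580 and AT3G28220. In the wild type, replicate 1 was the lowest and replicate 2 the highest for both AT5G39580 and AT3G28220. The lowest wild-type array was replicate 3 for ATPMEPCRB and replicate 2 for AT4G22470. With 3 arrays per genotype, whether any of these orders is shared was not tested. In each of the 4 genes all double mutant arrays lay above all wild-type arrays, which their choice made likely and which held for 23.2% of all genes.

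Relatives of the 4 genes were then compared between genotypes. They were found by locus from lists of each family, since the annotation used here gives no product names, and each chosen gene was left out of its own family's counts. Against a background of 13286 genes, of which 17.8% rose and 17.1% fell at a limma adjusted p of 0.05, the median log2 difference was -0.01. These shares include genes near the background in both genotypes. Without them 10081 genes remain, of which 22.9% rose and 21.3% fell.

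Other pectin methylesterases were called about as often as genes in general. Of 64 listed relatives 42 were measured. Among these 8 rose and 5 fell, and of the 29 without a call 17 were near the background in both genotypes. That is 31.0% called, against 34.9% of all genes. The median log2 difference was 0.02, and 1 of the 42 rose by at least 1. AT3G10720 read 8.49, 8.56 and 8.36 in the double mutant arrays, against 7.14, 7.32 and 7.43 in the wild-type arrays, and rose by 1.18 (SE 0.10, limma adjusted p = 6.3e-06). AT1G05310 rose by 0.94 (SE 0.14) and PMEPCRF (AT5G53370) by 0.93 (SE 0.09). PMEPCRF lies in an interval of chromosome 5, between AT5G40450 and AT5G55000, where the median log2 difference of 753 measured genes was 0.52. ATPMEPCRD (AT2G43050) fell by 0.74 (SE 0.10, limma adjusted p = 0.00022). AT2G26450, near the background in the double mutant, fell by at least 0.46. AT3G42160 fell by 0.38 between readings near the background in both genotypes, so the size of its change is uncertain. Both lost their call when double mutant replicate 1 was left out (limma adjusted p = 0.051 for each), AT3G42160 also without double mutant replicate 2 (adjusted p = 0.059). The numbers that rose and fell were 5 and 3 without double mutant replicate 2, and the number that fell was 1 without double mutant replicate 1.

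Genes of pectin methylesterase inhibitors were mostly lower in the double mutant. Of 25 listed genes 14 were measured: 10 fell, 1 rose, and the 3 that did not pass were near the background in both genotypes. That is 78.6% called, against 34.9% of all genes, and 17.1% of all genes fell. Among those counted as lower, AT1G62760 fell by 0.41 on its brighter probe set, while its other one differed by 0.08 and did not pass (limma adjusted p = 0.53). The median log2 difference of the inhibitor genes was -0.48, and 3 of them fell by at least 1, where 2.3% of all genes did. AT5G62360 read 7.85, 7.89 and 8.05 in the double mutant arrays, against 10.61, 10.47 and 10.70 in the wild-type arrays, and fell by 2.66 (SE 0.10, limma adjusted p = 1.9e-08), or 6.32-fold. Its neighbour by locus number, AT5G62350, fell by 1.17 (SE 0.09, limma adjusted p = 2.3e-06). AT1G62770 read 5.0, 4.96 and 5.03 in the double mutant arrays, against 7.09, 6.88 and 7.0 in the wild-type arrays, and fell by 1.99 (SE 0.09). The arrays of these 3 genes do not overlap between genotypes, which the rule for naming genes required. All double mutant arrays lay below all wild-type arrays for 22.9% of all genes. AT1G23205 was the only inhibitor gene to rise, by 0.27 (limma adjusted p = 0.044), a call that was lost in 8 of 11 alternative fits (adjusted p = 0.059 to 0.17 in those).

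Genes of other enzymes that act on pectin were called at a share near that of all genes. Of 31 measured polygalacturonase, pectate lyase and pectin acetylesterase genes 5 rose and 7 fell, 19 had no call, and the median log2 difference was -0.09. That is 38.7% called, against 34.9% of all genes. The pectate lyase gene AT3G07010 fell by 1.09 (SE 0.11, limma adjusted p = 1.3e-05), AT1G67750 by 0.78 (SE 0.09) and AT4G24780 by 0.55 (SE 0.10). AT3G27400, also a pectate lyase gene, rose by 0.81 (SE 0.10, limma adjusted p = 6.5e-05). For the pectin acetylesterase gene AT3G05910 the increase was 0.61 (SE 0.09). AT5G04310 rose by 0.69 (SE 0.12) on its brighter probe set, while the other one differed by 0.14 and did not pass (limma adjusted p = 0.26). The number that fell was 4 when either double mutant replicate 1 or double mutant replicate 2 was left out.

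**Figure D2:**
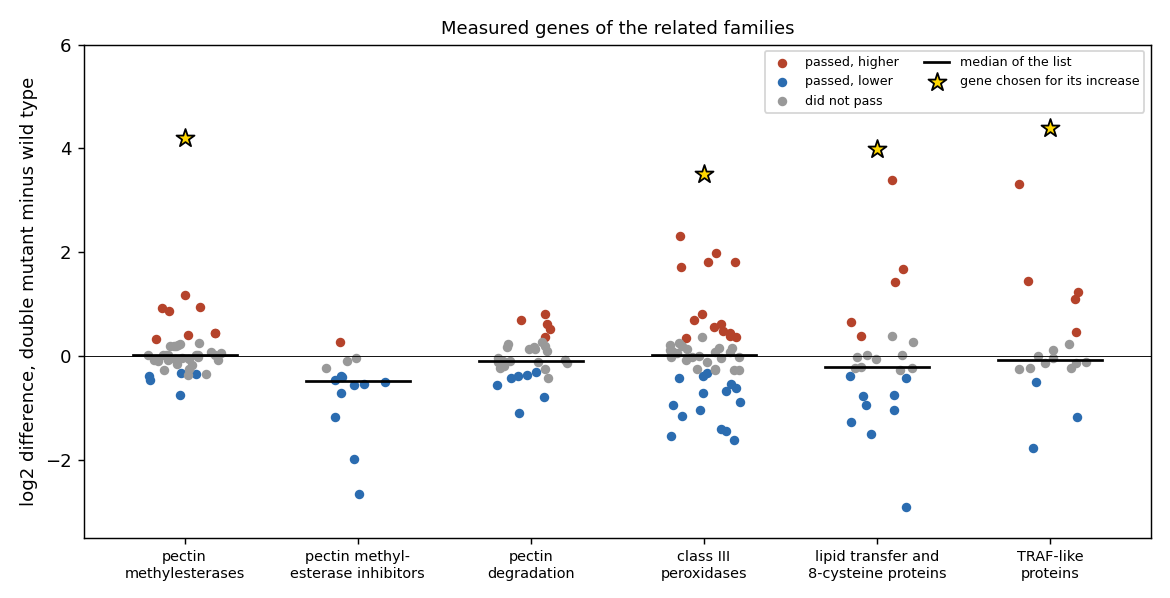
Log2 difference, double mutant minus wild type, of each measured gene in 6 lists, with the list's median as a bar. Red and blue points passed at a limma adjusted p of 0.05, grey points did not, and stars are the 4 genes chosen for their increase. The stars stand at 3.50 to 4.40, while the medians of the lists lie between -0.48 and 0.03.

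Class III peroxidases changed often and in both directions. Of 72 listed relatives of AT5G39580, 54 were measured. Among these 14 rose and 15 fell, and of the 25 without a call 17 were near the background in both genotypes. That is 53.7% called, against 34.9% of all genes, with a median log2 difference of 0.03. Increases of at least 1 were seen for 5 genes and decreases of at least 1 for 6, where 3.73% and 2.3% of all genes changed that much. AT5G64120 (PRX71) read 9.38, 9.54 and 9.53 in the double mutant arrays, against 7.17, 7.38 and 6.94 in the wild-type arrays, and rose by 2.32 (SE 0.12, limma adjusted p = 1.3e-07), or 5.0-fold. AT4G30170 and AT4G33420 rose by 1.98 (SE 0.14) and 1.82 (SE 0.10).

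Among the peroxidases that fell, AT5G64110 lies beside AT5G64120 by locus number and changed in the opposite direction. It read 6.52, 6.63 and 6.54 in the double mutant arrays, against 8.10, 8.19 and 8.24 in the wild-type arrays, and fell by 1.61 (SE 0.09, limma adjusted p = 2.1e-07). AT5G58390 fell by 1.54 (SE 0.10) and AT4G11290 by 1.45 (SE 0.11). No other measured peroxidase rose as far as AT5G39580, whose place at the top follows from its choice. AT5G39580 itself lies outside the raised interval of chromosome 5, 94 protein-coding genes before its first gene.

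Genes of lipid transfer and related 8-cysteine proteins also moved both ways. Of 60 listed relatives of AT4G22470, 24 were measured. Among these 5 rose and 9 fell, 10 had no call, and the median log2 difference was -0.21. That is 58.3% called, against 34.9% of all genes. AT4G12490 read 8.62, 8.84 and 8.90 in the double mutant arrays, against 5.29, 5.18 and 5.68 in the wild-type arrays, and rose by 3.40 (SE 0.13, limma adjusted p = 2.4e-08), or 10.6-fold. AT4G12500, the next locus and a close relative of it, rose by 1.68 (SE 0.12), and AT1G62510 rose by 1.43 (SE 0.09). AT4G12490 and AT4G12500 belong to the proline-rich group that also holds AZI1, a gene of azelaic acid priming. How far probes of such close relatives share signal was not tested.

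The largest decrease on this list was that of a near neighbour of AT4G22470 in the genome. AT4G22490 read 8.71, 8.54 and 8.51 in the double mutant arrays, against 11.61, 11.51 and 11.36 in the wild-type arrays. It fell by 2.91 (SE 0.10, limma adjusted p = 1.3e-08), or 7.52-fold, while AT4G22470, 3 protein-coding genes away, was 15.9-fold higher. On the other side AT4G22460, also of this family and also 3 protein-coding genes away, averaged 0.38 above the wild type (SE 0.14) and did not pass (limma adjusted p = 0.052). AT3G58550 fell by 1.51 (SE 0.11) and AT5G01870 by 1.26 (SE 0.12).

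TRAF-like genes held a second large increase. Of 55 listed relatives of AT3G28220, 18 were measured. Among these 5 rose and 3 fell, and of the 10 without a call 7 were near the background in both genotypes. That is 44.4% called, against 34.9% of all genes. The median log2 difference was -0.08. AT5G26260 read 6.74, 6.97 and 6.75 in the double mutant arrays, against 3.49, 3.48 and 3.54 in the wild-type arrays, where it was near the background. It rose by at least 3.31 (SE 0.09, limma adjusted p = 4.5e-09), or at least 9.95-fold. AT5G26280, from the same small group of loci, rose by 1.45 (SE 0.10), and AT3G20370 by 1.23 (SE 0.10).

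Of the TRAF-like genes that fell, AT4G01390 read 6.46, 6.59 and 6.86 in the double mutant arrays, against 8.45, 8.30 and 8.48 in the wild-type arrays. It fell by 1.77 (SE 0.11, limma adjusted p = 6.7e-07), AT1G65370 fell by 1.18 (SE 0.15) and AT4G00780 by 0.50 (SE 0.09). The number of TRAF-like genes that fell was 5 without wild-type replicate 1, while the number that rose was within 1.5 times in each fit that left out 1 array.

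**Figure D3:**
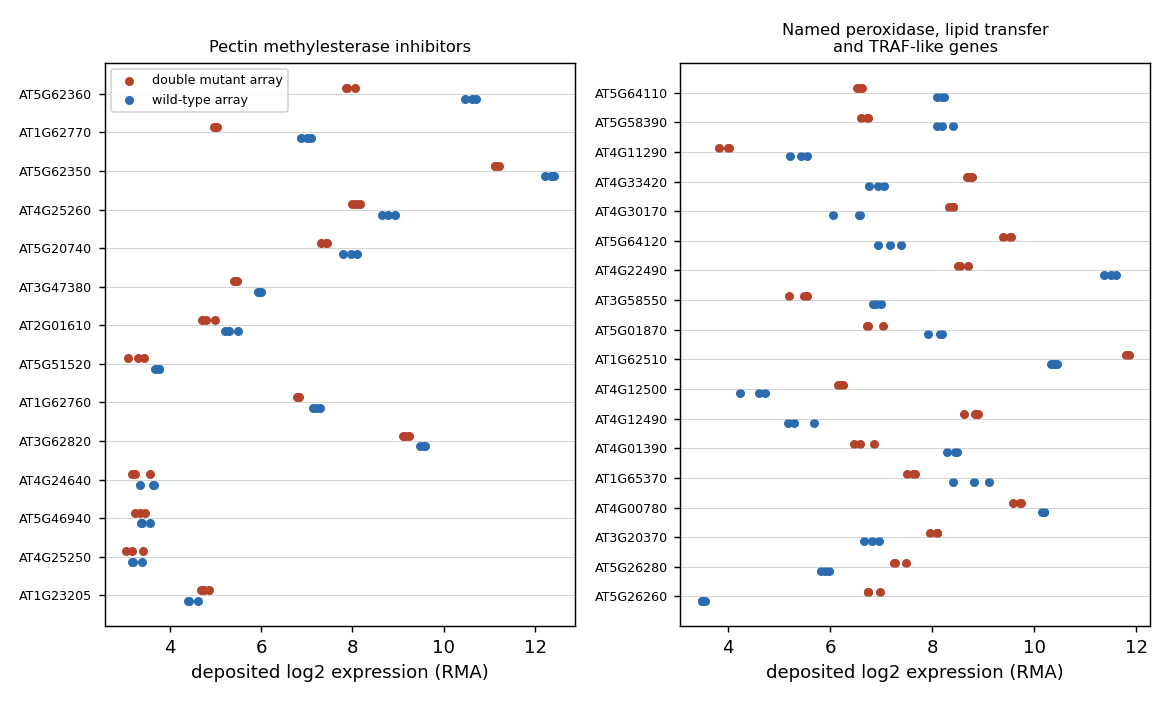
Deposited log2 expression on each array for the 14 measured pectin methylesterase inhibitor genes (left) and for 18 named peroxidase, lipid transfer and TRAF-like genes (right). Red points are double mutant arrays and blue points wild-type arrays. In the left panel the double mutant arrays of AT5G62360 read 7.85 to 8.05 and its wild-type arrays 10.47 to 10.70, and in the right panel the neighbouring loci AT5G64120 and AT5G64110 moved in opposite directions.

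Genes next to the 4 on the chromosome were examined because position took no part in the choice. Of the 40 measured genes that lie nearest, 5 on each side of each gene, 7 rose, 7 fell and 26 had no call. That is 35.0% called, against 34.9% of all genes, and their median log2 difference was 0.03. The number that rose was 4 without wild-type replicate 3 and likewise without double mutant replicate 2.

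Around ATPMEPCRB lie related genes. AT4G02320, the next gene on one side and itself a pectin methylesterase gene, rose by 0.32 (SE 0.10, limma adjusted p = 0.027), a call lost in 5 of 11 alternative fits (adjusted p = 0.052 to 0.12 in those). AT4G02300, 3 protein-coding genes away and of the same family, averaged 0.03 above the wild type (SE 0.10, limma adjusted p = 0.85). AT4G02310, between them, differed by -0.02 (SE 0.11), and both were near the background in both genotypes. On the other side AT4G02340 fell by 0.40 (SE 0.10), a call lost without double mutant replicate 3 (limma adjusted p = 0.051). SEC15B, an exocyst subunit gene that acts in secretion, rose by 0.30 (SE 0.11, limma adjusted p = 0.049), and its call was lost in 7 of 12 alternative fits (adjusted p = 0.051 to 0.18 in those). GH9B13, of the glycosyl hydrolase 9 family, was singled out after its value was seen: it fell by 1.51 (SE 0.17, limma adjusted p = 4.3e-05).

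Next to AT5G39580, AT5G39570 fell by 0.49 (SE 0.12, limma adjusted p = 0.0071), while AT5G39560 differed by -0.14 (SE 0.10) and did not pass. On the other side AT5G39590 rose by 0.54 (SE 0.13) and AT5G39600 fell by 0.46 (SE 0.11). Among the measured genes nearest to AT4G22470, beyond the family members given above, AT4G22450 differed by 0.29 (SE 0.12) and did not pass. AT4G22530, 9 protein-coding genes away, rose by 0.36 (SE 0.11, limma adjusted p = 0.026), a call lost in 5 of 11 alternative fits (adjusted p = 0.057 to 0.094 in those). The measured gene nearest to AT3G28220 on one side is another class III peroxidase gene, AT3G28200, 3 protein-coding genes away. It rose by 0.45 (SE 0.09, limma adjusted p = 0.0019). AT3G28190, AT3G28230 and AT3G28240 differed by -0.02, -0.03 and 0.08, each with an SE of 0.09, and did not pass. Apart from AT4G22490 and GH9B13, the neighbours thus changed by less than 1 on the log2 scale in either direction.

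**Figure D4:**
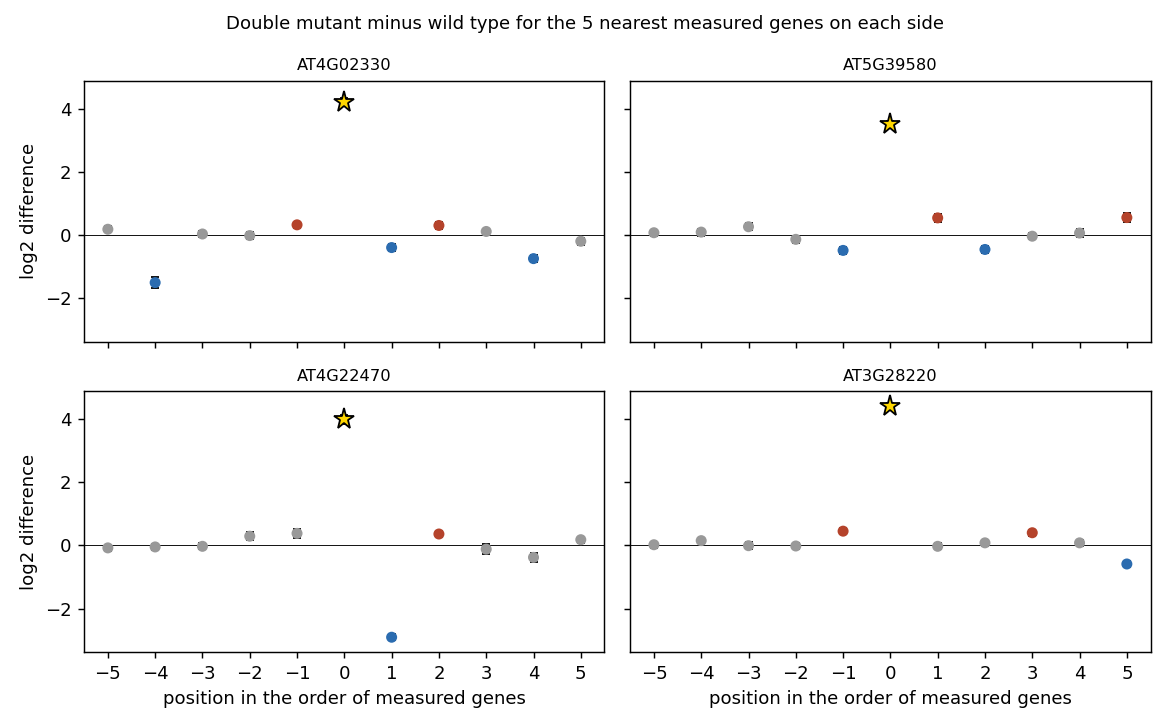
Log2 difference, double mutant minus wild type, for the 5 nearest measured genes on each side of each of the 4 genes (star, position 0), in the order of measured genes. Error bars are the SE from limma, red and blue points passed at an adjusted p of 0.05 and grey points did not. Of the 40 neighbours, 2 changed by at least 1, and these are AT4G22490 at -2.91 and GH9B13 at -1.51.

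The genes whose profile over the 6 arrays was most like each of the 4 were ranked by the root mean square distance between log2 values, each gene taken against its own wild-type mean. For ATPMEPCRB they were AT3G28220 at 0.25, ndhK at 0.27, a plastid gene of the NADH dehydrogenase-like complex, and AT4G22470 at 0.33. For AT3G28220 they were ATPMEPCRB at 0.25, ndhK at 0.35 and AT4G22470 at 0.36. For AT4G22470 the nearest were psbB at 0.17 and ndhH at 0.23, both encoded in the plastid, and then ATPMEPCRB at 0.33. AT5G39580 was 0.44 to 0.64 from the other 3, a distance taken from its readings near the background in the wild type and therefore uncertain, and was nearest to AT1G65490 at 0.18, GAT1_2.1, a glutamine amidotransferase gene, at 0.19 and BGLU45, a beta-glucosidase gene, at 0.23. The measure is set chiefly by the size of the difference between genotypes. The plastid genes among these neighbours moved on the same arrays as the 25S ribosomal RNA control, and the part of RNA preparation in either was not tested.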

How the data were processed

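Expression was measured on 6 Affymetrix arrays, from 3 double mutant and 3 wild-type RNA samples, grouped and numbered by their titles. The values the authors deposited are log2 expression per probe set, for which the submitters' processing notes name RMA, limma and R 2.9.0. RMA corrects background, quantile-normalizes arrays and summarises probes, and it compresses folds near the background. The authors' deposited table holds log2 differences, p-values, adjusted p-values and score columns (a moderated statistic and log odds). Its differences matched the group means to within 6.7e-09 and run double mutant minus wild type. Scan dates, detection calls and scanner intensities were not used here. Batches were therefore not examined, and precision is limited by the small number of arrays.

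The 64 control probe sets were left out, which leaves 22746. Probe sets naming 1 gene were matched by gene identifier to the RefSeq table of assembly TAIR10.1 (13436 probe sets, 13286 genes, the brightest probe set per gene). That table gave names and gene order only. No sequence was used here. All were tested by limma 3.58.1 in R 4.3.3 (lmFit and eBayes, two-sided) with genotype alone in the model, a Benjamini-Hochberg adjustment over all 22746 and a threshold of 0.05. With 3 arrays against 3 an exact permutation test cannot give p below 0.1, so none is shown. Simulations drew normal noise around the real means at the SD from limma, with 200 changed probe sets in each of 5 runs. In these, 100% of changes of size 1 and of size 2 were recovered, and at most 10.7% of calls were false. In the real data 38.5% of probe sets passed, a far larger share, so these rates need not hold there. Python 3.11.15 made the summaries.

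The genes and the 14 lists (461 loci) were chosen with earlier results of these data known. The systemic resistance list has 0 measured genes. Named relatives are, from each list, up to 3 called increases and 3 called decreases of largest size whose arrays do not overlap, or the largest statistic where none was called. The 2 nearest measured genes on each side and the 3 most alike genes are also named. Alternatives were leaving out each array, the replicate number as a block, a trended robust prior, median centring, cyclic loess, a low-signal filter, all probe sets of a gene, and the authors' deposited table.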

Additional observations from a re-analysis of the deposited data

Results flagged for a closer look

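The 25S ribosomal RNA control, a probe set outside the tests of genes, read 12.19, 12.08 and 12.32 in the double mutant arrays, against 5.45, 6.81 and 5.53 in the wild-type arrays. It differed by 6.26 on the log2 scale, further than any of the 4 genes described above, and was high on the same RNA samples as they were. What part this signal has in the values of these genes was not tested.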

How the results depend on the processing

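The log2 differences of the 4 genes moved little, which most alternatives fixed in advance. The block, the trended robust prior, the low-signal filter and the authors' table keep the difference of means by construction. Leaving out 1 array moves a mean only within the range of its replicates. With 1 array left out the differences ran from 4.13 to 4.36 (ATPMEPCRB), 3.40 to 3.59 (AT5G39580), 3.83 to 4.13 (AT4G22470) and 4.33 to 4.45 (AT3G28220). Median centring, which could move them freely, gave 4.17, 3.45, 3.94 and 4.35 in the same order, and cyclic loess 4.21, 3.48, 3.99 and 4.4. The low-signal filter gave no value for AT5G39580, whose mean level is below its limit. Arrays of the same replicate number did not vary together: deviations from the group means correlated at -0.0764, -0.1 and -0.159 for replicates 1, 2 and 3. Between arrays of unlike number these correlations ran from -0.0579 to 0.157. Whether the arrays were paired in another way was not tested. With the replicate number as a block, the call of AT1G23205 was lost, so that 0 rather than 1 of the pectin methylesterase inhibitors rose, and 12 and 14 peroxidases rose and fell. The trended robust prior and median centring also left 0, as did the low-signal filter. The filter tests fewer genes by its construction. Of 9 pectin methylesterases it tested, 3 rose and 1 fell, and of 15 peroxidases 6 rose and 7 fell. Of 9 lipid transfer genes 4 fell. Increases were called for 3 of 8 TRAF-like genes, 3 of 12 pectin degradation genes and 3 of 13 neighbours. Under this filter 3203 of 11373 probe sets rose and 3037 fell, so its counts are not on the base of the main ones. Median centring left 4 neighbours that rose, and counting only the 2 nearest genes on each side, which was chosen after seeing the data, left 4 that fell. Leaving out the chromosome 5 interval, also chosen after seeing the data, moved no count of a family by over 1.5 times. With 1 array left out, pectin methylesterases that rose ran from 5 to 9 and those that fell from 1 to 7, inhibitors that rose from 0 to 1, TRAF-like genes that fell from 3 to 5, pectin degradation genes that fell from 4 to 9, and neighbours that rose from 4 to 7. The inhibitors that fell numbered 10 in each of those fits. Of 49 named genes of the lists 42 kept their call in every alternative run and 5 lost it in some. Of the 14 neighbours called, 10 kept their call and 4 lost it in some (AT4G02320, AT4G02340, SEC15B and AT4G22530). AT3G01570, a seed marker that did not pass, ran from -0.17 to 0.06 with 1 array left out, where it read 0.06, 0.02 and 0.06 without wild-type replicate 1, double mutant replicate 1 and double mutant replicate 3.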

Other observations

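Other lists tied to walls and defence held few measured genes. Of all genes 17.8% rose and 17.1% fell. Of 22 lignin synthesis genes 2 were measured and both rose: HCT, an enzyme on the way to lignin building blocks, by 0.58 (SE 0.11, limma adjusted p = 0.0015), and CCR2, a cinnamoyl-CoA reductase near the background in the wild type, by at least 0.51 (SE 0.09, limma adjusted p = 0.0011). HCT lies in the raised interval of chromosome 5, as do MYC3 and AT5G44020 below. Both measured genes of 19 on the wound and jasmonate list fell, and both encode jasmonate-response transcription factors. MYC4 read 6.05, 6.05 and 5.67 in the double mutant arrays, against 6.82, 7.34 and 6.86 in the wild-type arrays, and fell by 1.08 (SE 0.15, limma adjusted p = 0.0002). MYC3 fell by 0.26 (limma adjusted p = 0.047), a call that was lost in 6 of 12 alternatives (adjusted p = 0.066 to 0.16 in those). Of 3 measured genes for NADPH oxidases, enzymes that make superoxide at the cell surface, AT4G25090 rose by 0.28 (limma adjusted p = 0.031) while near the background in both genotypes. Its call was lost in 6 of 11 alternatives (adjusted p = 0.053 to 0.12 in those).

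Some class III peroxidases are known from roots, and 6 of 19 root markers were measured. Where 17.8% of all genes rose and 17.1% fell, 3 of these 6 markers rose and 2 fell. Their mean log2 level was 6.73 to 6.77 in the double mutant arrays and 6.83 to 7.03 in the wild-type arrays. PYK10, a root beta-glucosidase gene, rose by 0.52 (SE 0.10) and AT5G44020 by 1.45 (SE 0.13). AT4G30670 fell by 1.98 (SE 0.10) and the nitrate transporter gene NRT2.5 by 1.57 (SE 0.14). The gene AT4G26010, also counted among the peroxidases above, rose by 0.49 (SE 0.12) and was near the background in the wild type. Its double mutant arrays read 3.48, 3.83 and 3.56, against lower quartiles of 3.71, 3.76 and 3.79 on those arrays. The size of its change is therefore uncertain. Of the leaf markers RCA rose by 0.60 (SE 0.08), PRK by 0.57 (SE 0.10) and LHCB4.3 by 0.55 (SE 0.11). The guard cell gene FMA was at 7.26 ± 0.16 in the double mutant and 7.43 ± 0.15 in the wild type (SD, n = 3 each; limma adjusted p = 0.27). The seed gene AT3G01570 was at 3.84 ± 0.24 in the double mutant and 3.87 ± 0.16 in the wild type (SD, n = 3 each; limma adjusted p = 0.9). Whether these markers have a part in the values of the 4 genes was not tested.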
